A study of Mus musculus with 10 samples.

Results

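Of the 35275 genes in the table, 9 genes mutated in inherited amyotrophic lateral sclerosis (ALS) and related motor neuron disease were followed, found in the table by gene symbol: Sod1, Tardbp, Optn, Tbk1, Ubqln2, Sqstm1, Matr3, Kif5a and Pfn1. Each symbol was present once, and all 9 were among the 14497 genes averaging 0.5 FPKM or more, with FPKM a fragment count scaled by gene length and library total, that were tested. Motor cortex RNA came from C57BL/6 mice aged 22 days, with 5 wild-type mice (WT) and 5 whose astrocytes lacked membralin through a conditional knockout (KO). Tmem259 encodes membralin, which sits in endoplasmic reticulum membranes. Which promoter drove the deletion, and which alleles the WT mice carried, is not given in the sources used here. Values cover whole tissue, in which cells other than astrocytes keep membralin. The comparison shows whether transcripts of these disease genes differed in cortex when astrocytes lacked it.

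Inherited ALS genes fall into a few cellular routes. TDP-43 (from Tardbp) and matrin 3 are nuclear RNA-binding proteins that act in splicing and RNA stability. Optineurin, p62 (from Sqstm1) and ubiquilin 2 recognise ubiquitin-tagged cargo and pass it to autophagy or the proteasome, and the kinase TBK1 phosphorylates optineurin and p62. KIF5A is a neuronal kinesin heavy chain that carries cargo along axons, profilin 1 supplies actin monomers to growing filaments, and SOD1 is the cytosolic superoxide dismutase.

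The libraries held between 22793058 and 28827871 fragments. Tmem259 itself averaged 27.4 ± 3.73 FPKM across WT libraries and 23.2 ± 7.16 FPKM across KO libraries (SD, n = 5 each), a difference that did not pass (limma adjusted p = 0.275). The library labelled KO3 had the highest Tmem259 level of the 10, 34.4 FPKM, so the targeted gene goes against that label. Its Gfap level of 106 FPKM lay inside the WT range of 79.4 to 114 FPKM, while the other KO libraries were between 426 and 673 FPKM; Gfap is the intermediate filament of reactive astrocytes. Unless said to be left out, that library counts among the KO libraries in all values below. Omp, a marker of the olfactory bulb, was at most 0.406 FPKM in WT1, WT2, WT5 and KO5 and at least 2.95 FPKM in the other 6 libraries. Markers of cortical excitatory neurons were present in every library, with 10 markers summing to between 880 and 1112 FPKM. Those of lower motor neurons were near the floor: Mnx1 was listed at 0 in all 10 libraries and Chat stayed between 0.362 and 2.18 FPKM.

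Upstream sequence was found in RefSeq (build GRCm38.p6) for 6 of the 9 genes: Sod1, Sqstm1, Pfn1, Tardbp, Tbk1 and Optn. The 250 bases before the start annotated with that sequence are shown 5′ to 3′ for the pair with the highest and the pair with the lowest transcript level among these 6. That start differs from the deposited one for Sod1, Sqstm1 and Optn. The Sod1 window ends at 90220761, past the deposited start at 90220742. On the minus strand, the Sqstm1 window begins at 50210821 and the deposited gene ends at 50210827. For Optn these are 5064118 and 5064051. Capitals mark GGGCGG, the GC box bound by Sp1-type factors, on either strand.
Sod1, chr16:90220512-90220761, plus strand: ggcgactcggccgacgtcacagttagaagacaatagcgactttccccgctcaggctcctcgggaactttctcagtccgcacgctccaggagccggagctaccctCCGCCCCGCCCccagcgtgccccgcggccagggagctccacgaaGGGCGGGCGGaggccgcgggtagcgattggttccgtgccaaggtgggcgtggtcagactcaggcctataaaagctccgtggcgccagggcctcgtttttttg
Sqstm1, chr11:50210821-50211070, minus strand: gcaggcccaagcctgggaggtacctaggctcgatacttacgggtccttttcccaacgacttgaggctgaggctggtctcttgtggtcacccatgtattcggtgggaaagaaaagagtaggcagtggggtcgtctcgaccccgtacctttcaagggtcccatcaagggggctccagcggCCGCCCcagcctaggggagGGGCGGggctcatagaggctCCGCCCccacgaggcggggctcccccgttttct
Tbk1, chr10:121586795-121587044, minus strand: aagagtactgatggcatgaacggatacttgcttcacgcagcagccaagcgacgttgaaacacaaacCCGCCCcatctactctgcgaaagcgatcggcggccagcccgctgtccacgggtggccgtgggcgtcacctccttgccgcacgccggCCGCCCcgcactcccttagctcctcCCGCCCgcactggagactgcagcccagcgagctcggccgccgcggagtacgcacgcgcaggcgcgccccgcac
Optn, chr2:5064118-5064367, minus strand: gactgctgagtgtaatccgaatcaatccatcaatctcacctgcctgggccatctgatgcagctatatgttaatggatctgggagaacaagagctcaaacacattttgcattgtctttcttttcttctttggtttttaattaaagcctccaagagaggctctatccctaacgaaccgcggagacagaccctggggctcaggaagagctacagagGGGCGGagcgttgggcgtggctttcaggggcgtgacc
All 6 upstream windows held GGGCGG on at least 1 strand, against 56.4% of 13425 windows of tested genes and 32.7% of all 32851 windows of the same length. Optn had 1 match and Sod1 had 4, with overlapping matches counted separately. The core TATA box TATAAA was found in the Sod1 window only, 37 to 32 bases before its start; 6.38% of windows of tested genes held it on either strand. The CACGTG element of lysosomal and autophagy genes was found in 0 of the 6 windows, against 8% of windows of tested genes. The NRF2 element TGACNNNGC, also searched on both strands, was found in 1 of the 6, Sod1, against 11.6%. These matches describe letters in a window and were not tested as binding sites.

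Levels of the 9 genes spanned 98.0-fold between the highest and the lowest mean FPKM over the 10 libraries, a scale that is per length and so can be set side by side between genes. Kif5a was highest at 563 FPKM, above 99.8% of the tested genes. Sod1 followed at 148 FPKM and Sqstm1 at 121 FPKM. Next came Ubqln2 at 72.7, Pfn1 at 61.0 and Matr3 at 36 FPKM. Tardbp (11.8 FPKM), Tbk1 (10.6 FPKM) and Optn (5.74 FPKM) were lowest, and Optn lay above 45.8% of the tested genes. The ranges over libraries of Sod1 and Sqstm1 overlapped, as did those of Ubqln2 and Pfn1, although the former of each pair was higher in 10 of 10 libraries. Tardbp and Tbk1 overlapped as well, with Tardbp higher in 9 of 10. For Pfn1 the deposited gene length of 1997 bases exceeds its longest coding transcript in GENCODE M21, which has 861 bases, so its FPKM is low relative to a value per transcript length. For the other 8 genes the deposited length was close to that of the longest coding transcript, as for Optn, at 2614 bases in both.

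**Figure D1:**
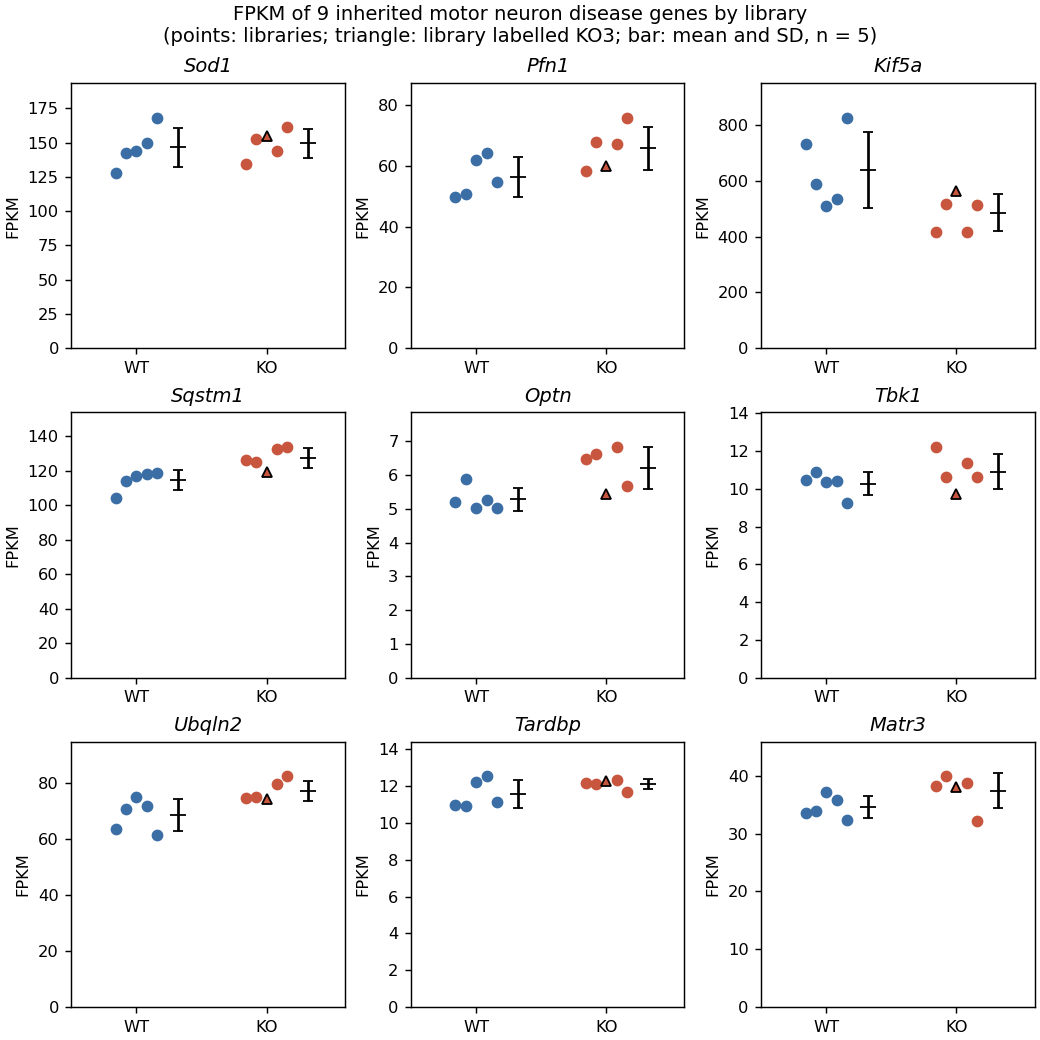
FPKM of each of the 9 genes (y axes, linear from 0) in the 5 WT and 5 KO libraries, with the mean and SD of each group (n = 5) beside the points and a triangle for the library labelled KO3. Sqstm1 is the gene whose groups do not overlap, and the WT values of Kif5a spread from 512 to 828 FPKM.

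None of the 9 genes was called between KO and WT in limma at a Benjamini-Hochberg adjusted p under 0.05, where 13.3% of all tested genes were called. At an unadjusted p under 0.05, 5 of the 9 passed, against 32.8% of all tested genes: Optn, Ubqln2, Sqstm1 and Pfn1 with higher means in KO, where 25.1% of all genes passed in that direction, and Kif5a with a lower mean, where 7.75% did. The log2 fold change was above 0 for 8 of the 9, against 69.5% of all genes, and its median was 0.11 over the 9 and 0.08 over all tested genes. Groups of libraries did not overlap for 1 of the 9, Sqstm1, against 7.55% of all tested genes. The sizes were small: apart from Kif5a, group means differed by between 1.96% and 17.7% of the WT mean. Without the library labelled KO3, 3 of the 9 were called, Optn and Sqstm1 higher and Kif5a lower, where 26.0% of all genes were called. With libraries weighted by their spread, Optn and Sqstm1 were called, where 24.5% of all genes were. Limma voom on recovered fragments called 0 of the 9, where 11.8% of all genes were called, and had 1 at an unadjusted p under 0.05, Kif5a, where 28.2% of all genes did.

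**Figure D2:**
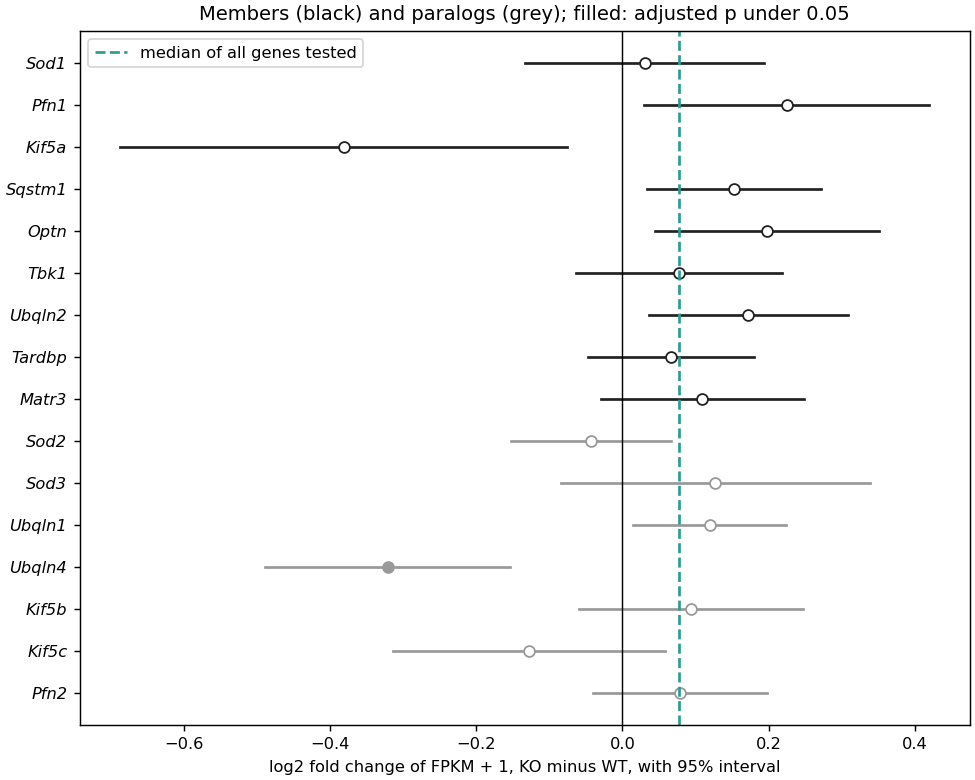
Log2 fold change of FPKM + 1 (x axis, KO minus WT) with its 95% interval from limma for the 9 genes in black and 7 paralogs in grey, with filled points for an adjusted p under 0.05. The filled point is Ubqln4, and the dashed line at 0.08 is the median of all tested genes.

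Among the autophagy genes, p62 and optineurin transcripts had the higher KO means. Sqstm1 (ENSMUSG00000015837, chromosome 11, 50199366 to 50210827, minus strand, mm10) encodes the cargo receptor p62, which joins ubiquitin to LC3 on autophagosomes. WT1 to WT5 gave 104, 114, 117, 118 and 119 FPKM, and KO1 to KO5 gave 126, 125, 119, 133 and 134 FPKM. All 5 KO libraries lay above all 5 WT libraries, as for 5.70% of tested genes, but the library labelled KO3, at 119.1 FPKM, exceeded the highest WT library, at 118.6 FPKM, by less than the SD of either group. Means were 115 ± 5.95 and 127 ± 5.96 FPKM (SD, n = 5 each; log2 fold change 0.15, SE 0.05, limma adjusted p = 0.0789). The exact two-sided permutation p was 0.00794, the smallest this design can give. The 95% interval of the fold change ran from 1.02 to 1.21. Leaving out the library labelled KO3 gave 129 ± 4.39 FPKM for KO (SD, n = 4) and a limma adjusted p of 0.0362.

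Optn (chromosome 2, 5020642 to 5064051, minus strand) encodes optineurin, an autophagy receptor that binds ubiquitin and TBK1. WT1 to WT5 measured 5.20, 5.88, 5.02, 5.26 and 5.03 FPKM. KO1 to KO5 measured 6.48, 6.63, 5.45, 6.83 and 5.66 FPKM, so KO1, KO2 and KO4 stood above every WT library and the library labelled KO3 and KO5 did not. Its means were 5.28 ± 0.352 and 6.21 ± 0.616 FPKM (SD, n = 5 each; log2 fold change 0.20, SE 0.07, limma adjusted p = 0.0771; by exact permutation, p = 0.0317). The interval of the fold change was 1.03 to 1.27. Between 299 and 467 fragments per library lay behind these values, the fewest of the 9 genes.

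Tbk1 (chromosome 10, 121546455 to 121586794, minus strand), the kinase that acts on both receptors, showed a difference smaller than the SD of its KO libraries. WT1 to WT5 were at 10.5, 10.9, 10.4, 10.4 and 9.23 FPKM, and KO1 to KO5 at 12.2, 10.6, 9.74, 11.4 and 10.6 FPKM. KO1 and KO4 stood above the WT range, and the other 3 KO libraries fell inside it. Means were 10.3 ± 0.618 and 10.9 ± 0.930 FPKM (SD, n = 5 each; log2 fold change 0.08, limma adjusted p = 0.429), and the 95% interval of the fold change was 0.957 to 1.16. With median-of-ratios scaling or voom its log2 fold change was -0.0061 and -0.0024.

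Ubqln2 (chromosome X, 153498227 to 153501570, plus strand) encodes ubiquilin 2, which shuttles ubiquitinated proteins to the proteasome, and is a gene of a single exon. Its WT values were 63.3, 70.4, 74.9, 71.6 and 61.5 FPKM, and its KO values 74.4, 75.0, 74.0, 79.5 and 82.2 FPKM. WT3 reached into the KO range, and the other 4 WT libraries lay below every KO library. The means were 68.4 ± 5.72 and 77.0 ± 3.65 FPKM (SD, n = 5 each; log2 fold change 0.17, SE 0.06, limma adjusted p = 0.0826; by exact permutation, p = 0.0238). The 95% interval of the fold change was 1.03 to 1.24. WT3 and WT4, with Omp transcripts, averaged 73.3 FPKM against 65.1 FPKM in the other WT libraries. Among KO libraries the order by Omp was the opposite. KO5, with little Omp, was the highest of all 10 at 82.2 FPKM, against 74.0 to 79.5 FPKM in those with Omp. With the olfactory bulb score the log2 fold change came to 0.09 (limma adjusted p = 0.651). With a score of Y-linked genes in the model, which separates the libraries with and without Y-linked transcripts, the log2 fold change of this X-linked gene was still 0.17 (limma adjusted p = 0.0905).

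Neither RNA-binding gene was called or reached an unadjusted p under 0.05. Tardbp (chromosome 4, 148612382 to 148627019, minus strand) gave 10.99, 10.9, 12.2, 12.5 and 11.1 FPKM for WT1 to WT5 and 12.2, 12.1, 12.3, 12.4 and 11.7 FPKM for KO1 to KO5. Every KO library lay inside the WT range, and the KO libraries were closer together, with an SD of 0.262 FPKM against 0.759 FPKM in WT. A log2 fold change of 0.07 resulted (limma adjusted p = 0.398), with an interval of 0.968 to 1.13 for the fold change. WT3, WT4 and the 4 KO libraries with Omp transcripts were all at 12.1 FPKM or above, and WT1, WT2, WT5 and KO5, with little Omp, were all at 11.7 FPKM or below.

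Matr3 (chromosome 18, 35562146 to 35593835, plus strand) had the same order. It was 33.6, 33.9, 37.2, 35.8 and 32.4 FPKM in WT1 to WT5 and 38.3, 39.9, 38.1, 38.8 and 32.1 FPKM in KO1 to KO5. KO5 was the lowest of the 10 libraries, and the other 4 KO libraries were above all WT libraries. Means were 34.6 ± 1.92 and 37.4 ± 3.05 FPKM (SD, n = 5 each; log2 fold change 0.11, limma adjusted p = 0.253). WT3 and WT4, with Omp transcripts, averaged 36.5 FPKM and the other WT libraries 33.3 FPKM. With an olfactory bulb score in the model, the log2 fold changes of Tardbp and Matr3 were -0.03 and -0.06 (limma adjusted p = 0.854 and 0.691). Of the 50-base windows in the longest Matr3 transcript, 28.4% also occur in transcripts of other genes, 26.8% in Gm28285 alone, which overlaps Matr3 on the same strand. Gm28285 was not found by that symbol among the deposited genes. Whether the shared windows affect the Matr3 level was not tested.

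Kif5a, the neuronal motor gene, had the largest difference among the 9 and the widest spread. Kif5a (chromosome 10, 127225696 to 127263363, minus strand) reached 732, 590, 512, 536 and 828 FPKM in WT1 to WT5. In KO1 to KO5 it reached 417, 519, 563, 416 and 515 FPKM. KO1 and KO4 lay below every WT library, while KO2, KO5 and the library labelled KO3 overlapped with WT3 and WT4. Group means were 639 ± 136 and 486 ± 66.5 FPKM (SD, n = 5 each), a KO mean of 0.760 times the WT mean. The log2 fold change of -0.38 (SE 0.14) did not pass the test (limma adjusted p = 0.0852; exact permutation p = 0.0556), and the interval of the fold change was 0.621 to 0.949. In bulk tissue, fewer cells of a type and less of a transcript per cell cannot be told apart.

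Kif5a levels were also set beside the olfactory bulb markers. Their score partly follows genotype, with WT1, WT2 and WT5 below every KO library. The parts of genotype and of olfactory bulb content in the Kif5a difference therefore cannot be told apart here. The 3 WT libraries with little Omp were between 590 and 828 FPKM, and WT3 and WT4, which held Omp transcripts, were at 512 and 536 FPKM. The 4 KO libraries with Omp ranged from 416 to 563 FPKM around a mean of 479 FPKM, against a mean of 524 FPKM for WT3 and WT4. KO5, the KO library with little Omp, was at 515 FPKM, below the 3 WT libraries with little Omp, although its score was near that of WT4. The score weighs all 8 markers alike, among them Uncx, which was below the filter. Uncx was near the floor, at 0.227 FPKM in KO5, its highest library, and 0.0149 FPKM in WT4. The scores, and the fits that use them, were not computed without Uncx. With the olfactory bulb score in the model the log2 fold change came to -0.11 (limma adjusted p = 0.811), and -0.16 (adjusted p = 0.626) after the library labelled KO3 was dropped too, a fit that called 0 of the 9 and 6.83% of all genes. Of 8 olfactory bulb markers 7 were tested and 2 were called higher in KO; they summed to between 4.88 and 31.5 FPKM in WT and between 14.2 and 67.6 FPKM in KO. Of 7 interneuron markers 4 were called higher and 1 lower, with sums of 256 to 338 FPKM in WT and 364 to 538 FPKM in KO; their part in these differences was not tested. In the fit with that score Sqstm1 and Optn were at 0.14 and 0.16 on the log2 scale and neither passed (adjusted p = 0.449 and 0.494), and 0 of all 14497 genes (0.00%) were called in it, where 2179 had an unadjusted p under 0.05.

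**Figure D3:**
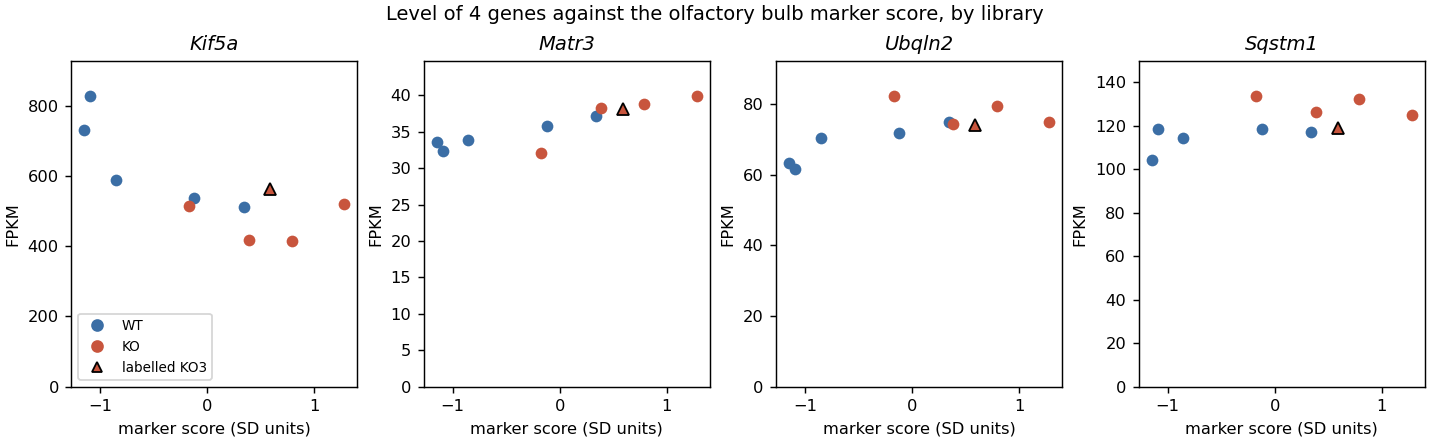
FPKM of Kif5a, Matr3, Ubqln2 and Sqstm1 (y axes, linear from 0) in each library against a score of 8 olfactory bulb markers (x axes, mean of standardised log2 values), with WT in blue, KO in red and a triangle for the library labelled KO3. WT1, WT2 and WT5 have the lowest scores and the highest Kif5a, from 590 to 828 FPKM.

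Pfn1 (chromosome 11, 70651850 to 70654644, minus strand), the actin monomer gene, averaged 56.2 ± 6.62 FPKM in the WT libraries and 65.7 ± 7.07 FPKM in the KO libraries (SD, n = 5 each). The WT libraries were at 49.5, 50.6, 61.95, 64.2 and 54.6 FPKM and the KO libraries at 58.1, 67.7, 59.8, 67.2 and 75.8 FPKM. KO2, KO4 and KO5 stood above the WT range and KO1 and the library labelled KO3 inside it. Its log2 fold change was 0.22 (SE 0.09, limma adjusted p = 0.107; by exact permutation, p = 0.0714). The fold change had an interval of 1.02 to 1.34. Within WT, Pfn1 was higher in the libraries with Omp, with a mean of 63.1 FPKM in WT3 and WT4 and 51.6 FPKM in the other 3 WT libraries. The 4 KO libraries with Omp averaged 63.2 FPKM, while KO5, with little Omp, was the highest of all 10 at 75.8 FPKM. By Omp this is the opposite order to WT. With the olfactory bulb score the log2 fold change came to 0.11 (limma adjusted p = 0.720).

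Sod1 (chromosome 16, 90220742 to 90226322, plus strand) was the closest to equal between genotypes. WT1 to WT5 were at 128, 143, 144, 149 and 168 FPKM, and KO1 to KO5 at 135, 153, 155, 144 and 161 FPKM, all 5 inside the WT range. The means of 147 ± 14.5 and 149 ± 10.5 FPKM (SD, n = 5 each) gave a log2 fold change of 0.03 (limma adjusted p = 0.809), with an interval of 0.912 to 1.14 for the fold change. The processed copy Gm8566 shares 23.1% of the 50-base windows of Sod1 and was itself at 0 to 0.613 FPKM. The direction of the Sod1, Tardbp and Tbk1 differences changed under median-of-ratios scaling, whose size factors were 0.941 to 0.990 in WT and 0.991 to 1.07 in KO. That scaling called 1526 of all genes (10.5%) and 0 of the 9, 625 of them higher, against 1926 and 1417 on the deposited scale. It also lowered the log2 fold changes of Sqstm1 from 0.15 to 0.06, of Optn from 0.20 to 0.12, of Ubqln2 from 0.17 to 0.08, of Pfn1 from 0.22 to 0.13 and of Matr3 from 0.11 to 0.02, and moved that of Kif5a from -0.38 to -0.47.

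Paralogs show how each member stands within its family. Ubqln4, a ubiquilin that binds misfolded proteins at the proteasome, fell from 54.5 ± 3.02 to 43.6 ± 5.56 FPKM (SD, n = 5 each; log2 fold change -0.32, SE 0.08, limma adjusted p = 0.0253). The library labelled KO3, at 53.3 FPKM, lay inside the WT range of 50.8 to 58.0 FPKM, and the other KO libraries were between 39.2 and 42.4 FPKM. Ubqln4 was not called in 6 of the 10 fits that left out a library (adjusted p from 0.0518 to 0.0720; WT1, WT5, KO1, KO2, KO4 or KO5 left out), with the olfactory bulb score (0.339), with the replicate block (0.0511) or with no filter (0.0553). Ubqln1, at 50.8 ± 1.48 and 55.3 ± 2.78 FPKM, was not called (adjusted p = 0.111). The share of Ubqln2 in the summed FPKM of the 3 ubiquilins was 39.3% ± 2.65 in WT and 43.8% ± 2.02 in KO (SD, n = 5 each; exact permutation p = 0.0238, and 0.119 adjusted over 5 families).

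Among the kinesin-1 heavy chains, Kif5c measured 265 ± 31.3 and 242 ± 19.8 FPKM and the ubiquitous Kif5b 45.1 ± 4.27 and 48.1 ± 3.37 FPKM in WT and KO (SD, n = 5 each), and neither was called (adjusted p = 0.321 and 0.376). Kif5a made up 67.0% ± 2.66 of the family in WT and 62.4% ± 3.68 in KO (exact permutation p = 0.0714, adjusted 0.119). In 4 of the 5 KO libraries its share lay below every WT library, and in the library labelled KO3 it was 67.8%. The gap was narrow, with KO2 at 64.5% and WT3 at 64.525%. Without the library labelled KO3 the difference was -5.92 percentage points (exact permutation p = 0.00794, not adjusted). That p is the smallest that 4 and 5 libraries can give. It follows from leaving out the only KO library that was not below WT, so no conclusion is drawn from it.

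Pfn2, the neuronal profilin, exceeded Pfn1 in all 10 libraries, with 157 ± 5.91 and 166 ± 9.25 FPKM (adjusted p = 0.340), so that Pfn1 held 26.3% ± 2.0 of the pair in WT and 28.4% ± 2.29 in KO (exact permutation p = 0.183, adjusted 0.228). This order and the size of the share rest on the deposited Pfn1 length of 1997 bases. Its longest coding transcript has 861 bases, so both understate Pfn1 relative to a value per transcript length. Mitochondrial Sod2 was 48.9 ± 2.68 and 47.4 ± 1.68 FPKM and extracellular Sod3 4.09 ± 0.572 and 4.55 ± 0.650 FPKM, neither called (adjusted p = 0.582 and 0.386). Sod1 held 73.3% ± 2.66 and 74.1% ± 1.74 of that family (exact permutation p = 0.579). Ikbke, the TBK1-related kinase, was below the filter, with 20 to 82 fragments per library, and Tbk1 made up 98.0% ± 0.533 of the pair in WT and 97.0% ± 0.673 in KO (exact permutation p = 0.0556, adjusted 0.119). None of the 5 shares passed after adjustment.

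**Figure D4:**
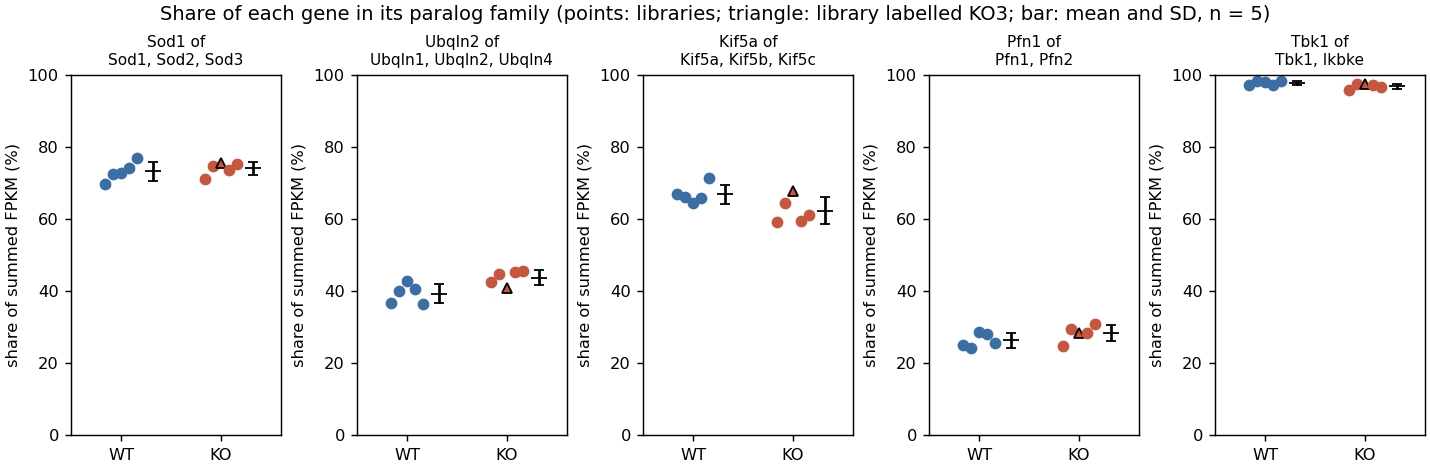
Share of each of 5 genes in the summed FPKM of its paralog family, in percent (y axes, 0 to 100), for each WT and KO library with the mean and SD (n = 5) and a triangle for the library labelled KO3. The share of Ubqln2 averages 39.3% in WT and 43.8% in KO.

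Other genes of the same routes were counted in 8 lists, which share 8 genes among them. In the other ALS genes, 5 of 30 tested genes rose and 1 fell, 20% called against 13.3% of all genes, with 9.77% of all genes higher and 3.51% lower, with a median log2 fold change of 0.10 against 0.08. The balance turned with median-of-ratios scaling or voom, to 1 higher and 3 lower, and with quantile normalization to 2 and 3. Grn, the lysosomal growth factor progranulin of microglia and neurons, rose from 21.8 ± 2.27 to 33.7 ± 5.28 FPKM (SD over 5 libraries each; log2 fold change 0.60, SE 0.11, limma adjusted p = 0.0186). The library labelled KO3, at 24.8 FPKM, was the lowest KO value and just above the highest WT value of 24.1 FPKM. Unc13a, a synaptic vesicle priming factor, fell from 64.8 ± 2.29 to 49.2 ± 5.87 FPKM (log2 fold change -0.40, limma adjusted p = 0.0186), with all KO libraries below all WT libraries. Chmp2b, of the endosomal sorting machinery, and the segregase Vcp rose by 0.28 and 0.25 on the log2 scale. Of 7 microglia and macrophage markers, 3 were called higher, and they summed to between 97.2 and 123 FPKM in WT and between 120 and 172 FPKM in KO. Their part in the Grn difference was not tested.

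Beside Optn, Tbk1 and Sqstm1, 5 of 29 tested genes of selective autophagy and TBK1 partners rose and 0 fell (17.2% called; median log2 fold change 0.07). Cargo receptors bind proteins of the ATG8 family. Its genes Gabarap and Gabarapl2 went from 54.9 ± 3.28 to 69.1 ± 6.36 FPKM and from 36.9 ± 2.04 to 46.3 ± 3.85 FPKM (SD over 5 libraries each, limma adjusted p = 0.0196 and 0.0186). The ATG8-family genes Gabarapl1, Map1lc3a and Map1lc3b had log2 fold changes of 0.0093, 0.047 and 0.092. None of these was called (limma adjusted p = 0.929, 0.701 and 0.203). Tax1bp1, a receptor related in function to p62, rose by 0.20 on the log2 scale, as did the conjugation factor Atg12, and the lysosomal membrane gene Lamp2 rose by 0.30. In the list around p62, KEAP1 and NRF2, 6 of 12 rose and 0 fell (50% called; median 0.27). Hmox1, heme oxygenase 1, rose from 1.59 ± 0.238 to 5.51 ± 3.05 FPKM (log2 fold change 1.19, SE 0.28, limma adjusted p = 0.0250), but was 1.59 FPKM in the library labelled KO3, inside the WT range. Txnrd1, thioredoxin reductase, went from 13.8 ± 0.774 to 18.0 ± 0.768 FPKM (log2 fold change 0.36, SE 0.05, limma adjusted p = 0.0180), with all KO libraries above all WT libraries. Srxn1, Slc7a11 and Nqo1, which are NRF2 targets, rose by 0.53, 0.48 and 0.43. Gclc and Gclm, of the same list, had log2 fold changes of 0.18 and 0.19 and were not called (limma adjusted p = 0.0841 and 0.0724). In the library labelled KO3, Srxn1 (24.5 FPKM) and Slc7a11 (8.94 FPKM) lay inside their WT ranges, and Nqo1 (1.69 FPKM) lay above its WT range.

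Around ubiquilin 2, Ubqln4 was the 1 of 11 tested genes called (9.09%; median 0.05). Of 23 RNA-binding partners of TDP-43 and matrin 3, 5 rose and 0 fell (21.7% called; median 0.15). They were the splicing repressor Ptbp1, with a log2 fold change of 0.43, Hnrnpa1 with 0.29, the paraspeckle gene Nono with 0.25, Hnrnpk with 0.23 and Hnrnpl with 0.20. With median-of-ratios scaling or voom 1 of the 23 was called.

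Around Kif5a, 3 of 22 tested genes of axonal transport rose and 1 fell (18.2% called; median 0.02), but with median-of-ratios scaling or voom 0 were higher and 2 lower. Klc1, the main neuronal kinesin light chain, rose from 197 ± 12.6 to 235 ± 13.8 FPKM (SD, n = 5 each; log2 fold change 0.25, limma adjusted p = 0.0286), and Trak1, which links kinesin to mitochondria, fell from 57.9 ± 5.01 to 47.6 ± 3.58 FPKM (log2 fold change -0.28, adjusted p = 0.0272). Groups did not overlap for either gene, as for 7.55% of all tested genes, but the library labelled KO3 lay close to the nearest WT library. For Klc1 it was at 211.74 FPKM against 211.35 FPKM, and for Trak1 at 53.4 FPKM against 53.9 FPKM. The dynein light chain Dynll1 and the dynactin filament gene Actr1a rose by 0.23 and 0.19.

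Around Pfn1, 6 of 17 tested genes of actin monomer handling rose and 0 fell (35.3% called; median 0.22), against 3 higher and 2 lower with median-of-ratios scaling or voom. Cotl1, an actin-binding protein abundant in myeloid cells, went from 27.2 ± 1.77 to 45.3 ± 6.55 FPKM and Tmsb10, a monomer-sequestering thymosin, from 163 ± 16.4 to 243 ± 29.6 FPKM (SD over 5 libraries each; limma adjusted p = 0.0180 for each). Vasp, Dstn and Tmsb4x rose by 0.29, 0.33 and 0.36 on the log2 scale. In the list around Sod1, 5 of 12 genes of superoxide and peroxide removal rose and 0 fell (41.7% called; median 0.19). They were Gpx1, at 0.54 on the log2 scale, Prdx1 at 0.28, Prdx2 at 0.26, Prdx3 at 0.23 and Cat, catalase, at 0.21, while Sod1, Sod2 and Sod3 were not called. These counts at the adjusted threshold depended on single libraries. Each of the 8 lists held 0 called genes when WT1, KO2 or KO4 was left out, fits that called 2 of all 14497 genes each. In those fits 3934, 4114 and 3742 of all genes had an unadjusted p under 0.05, against 4758 with all libraries. Without the library labelled KO3 the lists held between 2 and 14 called genes, where 26.0% of all genes were called. The counts were 0 in each list with the olfactory bulb score in the model. With median-of-ratios scaling the autophagy list had 2 genes higher and 1 lower, the p62 list 4 and 1, and the superoxide list 1 and 0. Besides Ubqln4, Hmox1, Srxn1 and Slc7a11, the library labelled KO3 lay inside the WT range for other called genes named from these lists. They were Vcp, Atg12, Lamp2, Ptbp1, Hnrnpa1, Dstn, Tmsb4x and Prdx3.

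**Figure D5:**
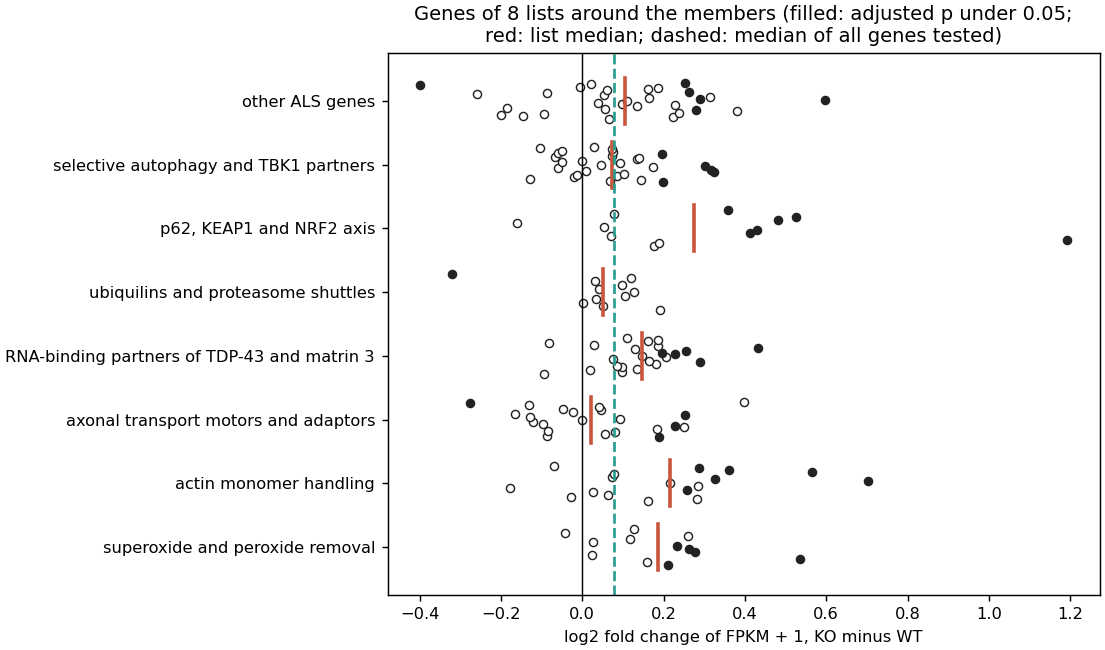
Log2 fold change of FPKM + 1 (x axis, KO minus WT) of each tested gene in 8 lists around the members, with filled points for an adjusted p under 0.05, a red bar at the list median and a dashed line at 0.08 for all tested genes. The p62, KEAP1 and NRF2 list has the highest median, 0.27, and Hmox1 is its point farthest to the right.

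Likeness in pattern was measured over the 10 libraries by Pearson's r of log2(FPKM + 1) after subtracting group means, among 8039 genes averaging 5 FPKM or more, and carries no test because the highest values were picked. Sqstm1 was most like Stmn3 (r = 0.987) and Tmem14c (0.963). Kif5a was most like Tbc1d9b (0.967) and Rapgef4 (0.966), and Matr3 most like Tshz1 (0.971) and Stxbp6 (0.968). Optn paired with Smurf2 and Rab11b (0.957 and 0.956), Tbk1 with Xpo6 and Aldh1b1 (0.977 and 0.971), and Ubqln2 with Creld1 and Atp13a1 (0.971 and 0.968). Sod1 was most like Eef1g and Ndufs5 (0.956 and 0.945), Pfn1 most like Apeh and Bex2 (0.935 each), and Tardbp most like Rpf2 and Tmem55a (0.906 and 0.905). No member was among the genes most like another member.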

How the data were processed

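Groups and replicate numbers came from the sample titles. The authors deposited FPKM per gene and library with gene coordinates and a gene length, per the file headers. Names of mm10 and DESeq2 appear, without a role, per the submitters' processing notes; which aligner, counter and annotation were used is not given in the sources used here. Per the labels' protocols, nothing says that the library kit keeps strand, so genes that overlap on opposite strands may share fragments. FPKM multiplied by length gave whole fragments for 100% of values above 0, within 0.02 of a whole number.

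KO was compared with WT by limma 3.58.1 (R 4.3.3; lmFit, eBayes with trend) on log2(FPKM + 1), over genes averaging 0.5 FPKM or more, two-sided, with Benjamini-Hochberg adjustment over all of them. Fold changes on this scale understate those of low genes. Single values were tested by exact two-sided permutation over all assignments of 5 and 5 libraries. The series' design text calls the libraries biological repeats, with no litter or batch named. The limma step was tested on simulated data.

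The text names the 9 members, the targeted gene, paralogs, up to 5 called genes per list by lowest p, the 2 genes most like each member and tissue markers. A few uncalled genes of the lists are named beside called ones, outside this rule. 1 gene that this rule names is not reported here. Members, lists and tests were chosen with earlier results of these data known. Alternatives covered the pseudocount, filter, scaling, variance model, library weights, replicate block, marker-score covariates and each library left out. The fit without the library labelled KO3 and with the olfactory bulb score was chosen after seeing the data.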

Additional observations from a re-analysis of the deposited data

Results flagged for a closer look

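In 114 groups of 5 libraries examined, 7 held a library far from the other 4, and chance gives about 1 in 20. Among the members these were WT2 for Optn, the highest WT value at 5.88 FPKM, and KO5 for Matr3, the lowest KO value at 32.1 FPKM. The library labelled KO3 stood apart for Ubqln4, at 53.3 FPKM, and for Vasp, at 5.28 FPKM, both toward the WT values. The other 3 were in WT: WT1 was low for Hmox1 at 1.17 FPKM, WT3 high for Hnrnpl at 71.99 FPKM and WT4 high for Dstn at 49.0 FPKM.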

How the results depend on the processing

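Over 22 alternative fits and an exact test for each of the 9 genes, 207 results in all, 186 kept direction and side of the threshold, 8 gained a call and 13 changed direction. No member was called to begin with, so the 186 include changes in size: with median-of-ratios scaling and voom Sqstm1 had log2 fold changes of 0.061 and 0.066, Ubqln2 of 0.082 and 0.087, Pfn1 of 0.13 and 0.14 and Matr3 of 0.020 and 0.024. Optn had 0.12 with median-of-ratios scaling and 0.097 with quantile normalization. Gains were for Optn, Sqstm1 and Kif5a without the library labelled KO3, for Optn and Sqstm1 with library weights, and for Optn, Ubqln2 and Sqstm1 in the exact test, which has no adjustment. Of the changes in direction, Sod1 had log2 fold changes of -0.061, -0.044 and -0.057 and Tardbp of -0.018, -0.0029 and -0.016 with median-of-ratios scaling, quantile normalization and voom; Tbk1 had -0.0061 and -0.0024 with the first and the last. With the olfactory bulb score Tardbp, Matr3 and Kif5c gave -0.031, -0.061 and 0.093, and without the library labelled KO3 as well -0.035, -0.067 and 0.12. Pfn2 gave -0.012 and -0.0088 with median-of-ratios scaling and voom. Sod1 ranged from -0.017 without WT1 to 0.081 without WT5, and its family share without WT1 differed by -0.053 points. The cause of these shifts was not tested.

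Genes called numbered 465 with no filter, 3557 with library weights, 1271 with the replicate block, 0 with the olfactory bulb score and 990 with that score and without the library labelled KO3, and 2 to 3763 when a library was left out. Members called were 2 with library weights and 0 to 3 with a library left out. In the lists of other ALS genes, autophagy, p62, ubiquilins, RNA-binding, axonal transport, actin and superoxide, in that order, no filter gave 2, 3, 1, 0, 1, 1, 2 and 1 calls, and the olfactory bulb score 0 in each list. Left-out libraries gave 0 to 14, 0 to 6, 0 to 8, 0 to 2, 0 to 9, 0 to 6, 0 to 9 and 0 to 6. The replicate block gave 3 for ALS, p62, RNA-binding and superoxide, 2 for axonal transport and 0 for ubiquilins. Library weights gave 11 for ALS and 8 for RNA-binding. Median-of-ratios scaling and voom each gave 3 for autophagy, 1 for RNA-binding, 2 for axonal transport and 1 for superoxide. Quantile normalization gave 3 for autophagy, 3 for actin and 2 for superoxide, and no trend gave 3 for autophagy. The score without the library labelled KO3 gave 1 for autophagy, RNA-binding and axonal transport, 3 for actin and 2 for superoxide.

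With a library left out, Tmem259 ranged from -0.42 to -0.17, called only without the library labelled KO3 (limma adjusted p = 0.0279), and the shares differed by -5.92 to -3.45 points for Kif5a, 1.40 to 2.95 for Pfn1, -0.053 to 1.77 for Sod1, -1.10 to -0.69 for Tbk1 and 3.75 to 5.31 for Ubqln2. Same-numbered libraries had correlated deviations between -0.0574 and 0.139, so the numbers were not taken to pair the samples; the replicate block called 0 members. Among the members Optn had the fewest fragments, 299 to 467 per library; Hmox1 (52 to 393) and Nqo1 (53 to 135) had fewer.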
